A study of Mus musculus with 2 samples.

Results

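Genes of the megakaryocyte and platelet programme were followed in mouse yolk sac (YS) and embryoid body (EB) cells: Gp9, Gp1bb, Itga2b, Itgb3, Plek, Rap1b, Pf4 and Ppbp. They are 8 of the 33456 genes listed, were chosen by name, and were each found once in both count tables. Cells were barcodes with at least 6537 UMIs in YS or 6172 in EB and at most 10% of UMIs from mitochondrial genes, which left 775 YS cells and 1878 EB cells. A UMI (unique molecular identifier) counts 1 captured transcript. The YS group was 1 library made from C57BL/6 yolk sacs of E9.5 and E10.5 embryos, taken in equal numbers and mixed before collagenase dissociation and freezing. Thawed YS cells were sorted to remove dead cells and about 70% of the Ter119-positive red cells, so stages and embryos cannot be told apart within it. The EB group was 1 library of C57BL/6 embryonic stem cells grown without LIF in serum as floating aggregates for 4 days, labelled as favouring hemangiogenic mesoderm, then dissociated with Accutase, frozen, thawed and sorted for live cells. Both suspensions went through 10x Genomics Chromium at 300 cells per microlitre. With 1 library per group no test between groups was possible, and every interval below is a 95% interval that covers counting error only.

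Platelets are cell fragments shed by megakaryocytes, large cells that arise from blood progenitors, in the embryo first in the yolk sac. Their surface carries a receptor for von Willebrand factor, which GP9 and GP1BB help to build, and a fibrinogen receptor made of the integrin chains that Itga2b and Itgb3 encode. Signals inside the platelet, in which pleckstrin (Plek) and the small GTPase RAP1B take part, switch that integrin on, and the granules release the chemokines PF4 and pro-platelet basic protein (Ppbp). Itga2b, known as CD41, is also made by early blood progenitors. Plek is made by other white blood cells as well, Pf4 by some macrophages, and Rap1b by most cell types.

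The YS library held 30294678 UMIs and the EB library 73915225, and median cells held 28461 and 25547 UMIs. The 2 cell barcodes found in both libraries are as many as the 1.97 expected from their numbers. Levels are given as CPM, the UMIs of a gene in a set of cells per 1000000 UMIs of all genes there. Cells of each library were clustered without the 8 genes, and a cluster was called "-like" from marker lists. The megakaryocyte label had limited support in YS cells. Of 15 other megakaryocyte genes, the late platelet genes Tubb1, Gp6 and Gp1ba had 1, 1 and 3 UMIs in all YS cells, whereas the podoplanin receptor gene Clec1b had 527. No YS cluster could be named megakaryocyte-like.

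All 7 genes that reached 10 UMIs in both libraries together were at least 2-fold higher in YS cells than in EB cells, where 21.5% of the 15621 genes compared were higher by that much and 18.5% were lower. Ppbp did not reach 10 UMIs. The receptor genes were nearly silent in EB cells. Gp9, at chr6:87778072-87779768 (+) in mm10, had 229 UMIs in 117 YS cells (9.47 CPM, 8.28 to 10.8) and 0 in EB cells, at least 160-fold higher against a floor of 3 UMIs. Gp1bb, at chr16:18620317-18622403 (-), had 135 UMIs in 44 YS cells (5.58 CPM, 4.68 to 6.61) and 2 UMIs in EB cells (0.0395 CPM, 0.00478 to 0.143), a ratio of 141 (38.4 to 1180). Its exons share 1902 of 2087 bases with Sept5 on the same strand in the GENCODE M21 annotation, so counting could have split or dropped its reads. Low Gp1bb counts are uncertain for that reason.

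The promoters of the genes on which the cell-type contrasts below turn are shown in RefSeq's GRCm38.p6 windows, 250 bases before to 50 bases after each gene's RefSeq start, on the gene's own strand. A RefSeq start can differ from the end of the GENCODE coordinates given for the gene. Capitals mark GATAA or TTATC, the core read by GATA factors, and AGGAAG or CTTCCT, a core read by ETS factors, searched on both strands. Such factors, GATA1 and FLI1 among them, are known to act on platelet genes.
Gp9: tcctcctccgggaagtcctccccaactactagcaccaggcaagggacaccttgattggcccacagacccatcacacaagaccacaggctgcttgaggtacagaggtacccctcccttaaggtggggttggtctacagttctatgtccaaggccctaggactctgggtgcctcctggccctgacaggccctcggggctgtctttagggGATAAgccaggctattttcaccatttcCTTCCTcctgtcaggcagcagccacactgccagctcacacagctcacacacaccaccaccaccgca
Gp1bb: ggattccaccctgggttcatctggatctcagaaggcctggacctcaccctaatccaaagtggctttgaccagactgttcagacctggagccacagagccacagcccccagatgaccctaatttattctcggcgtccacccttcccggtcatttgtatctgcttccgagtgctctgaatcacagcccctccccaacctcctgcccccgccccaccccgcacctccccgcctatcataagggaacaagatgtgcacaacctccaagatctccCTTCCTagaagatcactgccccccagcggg
Itga2b: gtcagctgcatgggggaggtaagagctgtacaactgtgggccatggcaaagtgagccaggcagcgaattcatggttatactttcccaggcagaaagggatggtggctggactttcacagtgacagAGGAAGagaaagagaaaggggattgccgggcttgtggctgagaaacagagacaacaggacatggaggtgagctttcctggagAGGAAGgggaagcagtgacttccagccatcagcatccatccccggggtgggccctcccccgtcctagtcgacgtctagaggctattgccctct
Pf4: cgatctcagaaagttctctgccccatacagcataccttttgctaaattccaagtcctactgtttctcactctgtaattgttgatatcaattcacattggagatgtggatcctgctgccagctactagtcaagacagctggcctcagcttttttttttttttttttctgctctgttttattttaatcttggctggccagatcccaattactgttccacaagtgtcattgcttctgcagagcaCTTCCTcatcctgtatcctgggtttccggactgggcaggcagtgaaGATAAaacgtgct
Ppbp: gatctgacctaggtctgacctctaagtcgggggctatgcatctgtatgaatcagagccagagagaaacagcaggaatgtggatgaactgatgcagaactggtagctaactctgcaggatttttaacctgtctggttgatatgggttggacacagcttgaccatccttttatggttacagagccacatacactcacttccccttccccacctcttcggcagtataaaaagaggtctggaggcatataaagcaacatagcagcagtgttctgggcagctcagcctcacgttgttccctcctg
The windows lie at chr6:87777820-87778119 (+), chr16:18622354-18622653 (-), chr11:102469834-102470133 (-), chr5:90772185-90772484 (+) and chr5:90768268-90768567 (+). Gp9 and Pf4 had both kinds of match, as did 9.19% of the 32851 mouse promoters in the table. Gp1bb and Itga2b had the ETS letters alone, which 35.35% of promoters held, and the GATA letters were in 25.41%. Ppbp had neither, although it is the neighbour of Pf4, ending 2371 bases before Pf4 starts. Plek had 1 GATA match and Rap1b none of either kind, and Itgb3 is named only. The Itga2b window lies mostly inside the GENCODE span of its gene, and the Plek window, chr11:17008669-17008968 (-), wholly inside. A match describes the letters in the window and is no evidence of binding.

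The integrin chains were likewise YS genes, with traces in EB cells. Itga2b, at chr11:102453297-102470122 (-), had 616 UMIs in 251 YS cells (25.5 CPM, 23.5 to 27.6) and 18 UMIs in 17 EB cells (0.355 CPM, 0.210 to 0.561), a ratio of 71.7 (45.0 to 122). Itgb3, at chr11:104608000-104670476 (+), had 811 UMIs in 282 YS cells (33.5 CPM, 31.3 to 35.9) and 39 UMIs in 30 EB cells (0.769 CPM, 0.547 to 1.05), a ratio of 43.6 (31.6 to 61.8). The EB traces were spread thinly. The EB cluster with the highest Itga2b, 1 of 2 hemangiogenic progenitor-like clusters, had 5 UMIs in 93 cells (2.27 CPM, 0.736 to 5.29), and the germ cell-like EB cluster had the highest Itgb3, 14 UMIs in 198 cells (2.56 CPM, 1.40 to 4.29).

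The signalling genes differed from each other most. Plek, at chr11:16971206-17052381 (-), encodes a main target of protein kinase C in platelets and had 1245 UMIs in 254 YS cells (51.5 CPM, 48.7 to 54.4) and 3 UMIs in EB cells (0.0592 CPM, 0.0122 to 0.173), a ratio of 870 (297 to 4224). Rap1b, at chr10:117813871-117846035 (-), was the broadly used member: 5573 UMIs in 89.4% of YS cells (230 CPM, 224 to 237) and 5290 UMIs in 85.9% of EB cells (104 CPM, 102 to 107), a ratio of 2.21 (2.13 to 2.29). Among EB clusters Rap1b ran between 59.6 CPM in epiblast-like cells and 153 CPM (137 to 170) in the smaller hemangiogenic progenitor-like cluster.

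The granule chemokines stood far apart from each other. Pf4, at chr5:90772435-90773383 (+), had 952 UMIs in 131 YS cells (39.4 CPM, 36.9 to 41.9) and 1 UMI in EB cells (0.0197 CPM, 0.000499 to 0.110), a ratio of 1995 (357 to 78898). Ppbp, at chr5:90768518-90770063 (+), had 7 UMIs in 7 YS cells (0.289 CPM, 0.116 to 0.596) and 1 UMI in EB cells (0.0197 CPM, 0.000499 to 0.110), a ratio of 14.7 (1.88 to 661). Of the 7 YS cells with Ppbp, 4 also held Pf4.

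**Figure D1:**
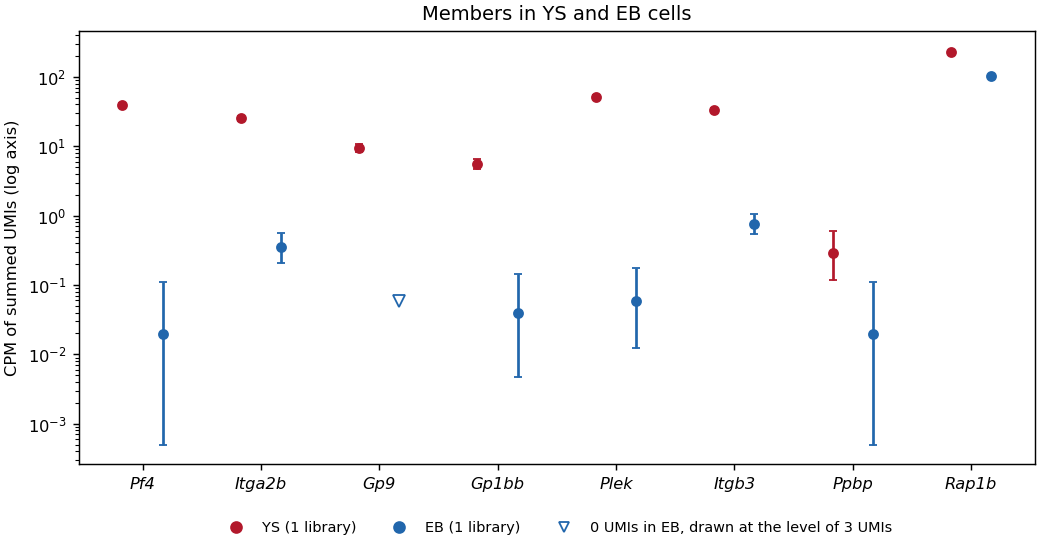
Levels of the 8 genes in YS cells (red, left of each pair) and EB cells (blue), as CPM of summed UMIs on a log axis, with 95% Poisson intervals and 1 library per group. Every gene is higher in YS, Rap1b by the least (230 against 104 CPM), and Gp9 with 0 UMIs in EB is drawn at the level of 3 UMIs.

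Over the 13 YS clusters the members did not share a single pattern. Gp9 and Gp1bb were highest in 59 cells led by Gm15915, Car1, Vamp5, Ptprcap and Fermt3, an unnamed cluster called the Car1 cluster below. Pf4 was highest in the 40 macrophage-like cells, Plek about equal in 112 hematopoietic progenitor-like cells and in 69 unnamed cells led by Prtn3 and Mpo (the Mpo cluster), and Itgb3 and Rap1b highest in the progenitor-like cells. The Car1 cluster had 3 of 15 other megakaryocyte genes enriched (Gp5, Treml1 and Rab27b), 3 of 12 progenitor genes (Myb, Gata2 and Adgrg1) and 1 of 12 erythroid genes, Klf1, and so met no list well enough for a name.

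Gp1bb was the most restricted of the members. Of its 135 YS UMIs, 116 (85.9%) were in the Car1 cluster, where 32 of 59 cells held it (46.9 CPM, 38.8 to 56.3). The progenitor-like cells had 16 UMIs (3.50 CPM, 2.00 to 5.68), the Mpo cluster had 3, and the other 10 clusters had 0. Sept5, the gene that shares its exons, had 3 UMIs in smooth muscle-like cells and 0 in every other cluster, the Car1 cluster included. Reads dropped in counting would appear in neither gene, so this does not settle whether Gp1bb lost reads.

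Gp9 was less restricted than Gp1bb. It stood at 34.0 CPM (27.1 to 42.1) in the Car1 cluster, 19.5 CPM (14.5 to 25.6) in the Mpo cluster and 18.4 CPM (14.6 to 22.7) in the progenitor-like cells, and the last pair did not differ beyond their intervals. The erythroid-like cells, 153 in 2 clusters, had 10 UMIs of Gp9 (1.83 CPM, 0.875 to 3.36). Endothelial-like, macrophage-like and mesothelial-like cells had 0. Mesothelial cells should lack the blood genes, and 0 of 103 such cells, with a median of 23564 UMIs, held Gp9 or Pf4, where 3 counts set the limit on cells with a UMI at 2.91%.

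Itga2b was found in more YS cells than Gp9 or Gp1bb and in fewer than Itgb3. It reached 82.9 CPM (72.0 to 95.1) in the Car1 cluster, 49.6 CPM (43.4 to 56.5) in progenitor-like cells and 32.4 CPM (25.9 to 40.1) in the Mpo cluster. The 48 endothelial-like cells had 43.1 CPM (29.5 to 60.8), with 32 UMIs in 20 cells, although Gp9, Gp1bb and Plek were at 0 there. Erythroid-like cells had 11.3 CPM (8.68 to 14.5). In mesothelial-like and smooth muscle-like cells 1 UMI each was seen.

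Itgb3 did not follow its integrin partner across clusters. It was highest in progenitor-like cells at 81.8 CPM (73.7 to 90.5), then 66.4 CPM (56.9 to 77.0) in the Mpo cluster and 41.7 CPM (34.0 to 50.5) in the Car1 cluster, an order opposite to that of Itga2b for the first and last. It also appeared where Gp9 was rare or at 0: 21.5 CPM (17.8 to 25.8) in erythroid-like cells, 20.2 CPM (11.3 to 33.3) in endothelial-like cells and 9.40 CPM (5.82 to 14.4) in smooth muscle-like cells. ITGB3 also pairs with another integrin chain, alpha V, outside platelets. Macrophage-like cells had 1 UMI.

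Plek marked the white blood cell and progenitor clusters. It had 129 CPM (116 to 143) in the Mpo cluster, 127 CPM (117 to 138) in progenitor-like cells, 85.0 CPM (73.9 to 97.3) in the Car1 cluster and 84.9 CPM (69.8 to 102) in macrophage-like cells, and the 2 members of each of these pairs did not differ beyond their intervals. Erythroid-like cells had 0.913 CPM (0.296 to 2.13), and endothelial-like, mesothelial-like and smooth muscle-like cells had 0 UMIs. Rap1b was found in every YS cluster, from 61.6 CPM (50.2 to 74.9) in an erythroid-like cluster to 433 CPM (414 to 453) in progenitor-like cells. Macrophage-like cells had 408 CPM (374 to 444) of it, an interval that overlapped the progenitor-like one, and the Car1 cluster 375 CPM (351 to 400).

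Pf4 had a distribution of its own. Macrophage-like cells had 281 CPM (253 to 311), with 364 UMIs in 31 of 40 cells, and 0 UMIs of Gp9, Gp1bb and Itga2b. The Car1 cluster had 142 CPM (127 to 157), of which 323 of 350 UMIs came from 1 cell, and without that cell the cluster stood at 11.2 CPM (7.38 to 16.3). The progenitor-like cells had 44.4 CPM (38.5 to 50.9), with 203 UMIs in 57 of 112 cells, the endothelial-like cells 13.5 CPM (6.45 to 24.8) and the Mpo cluster 8.01 CPM (4.96 to 12.2). In erythroid-like and mesothelial-like cells 1 and 0 UMIs were seen. Ppbp, its chromosomal neighbour, had 3 UMIs in progenitor-like cells, 2 in macrophage-like cells and 1 in the Car1 cluster, too few to rank.

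**Figure D2:**
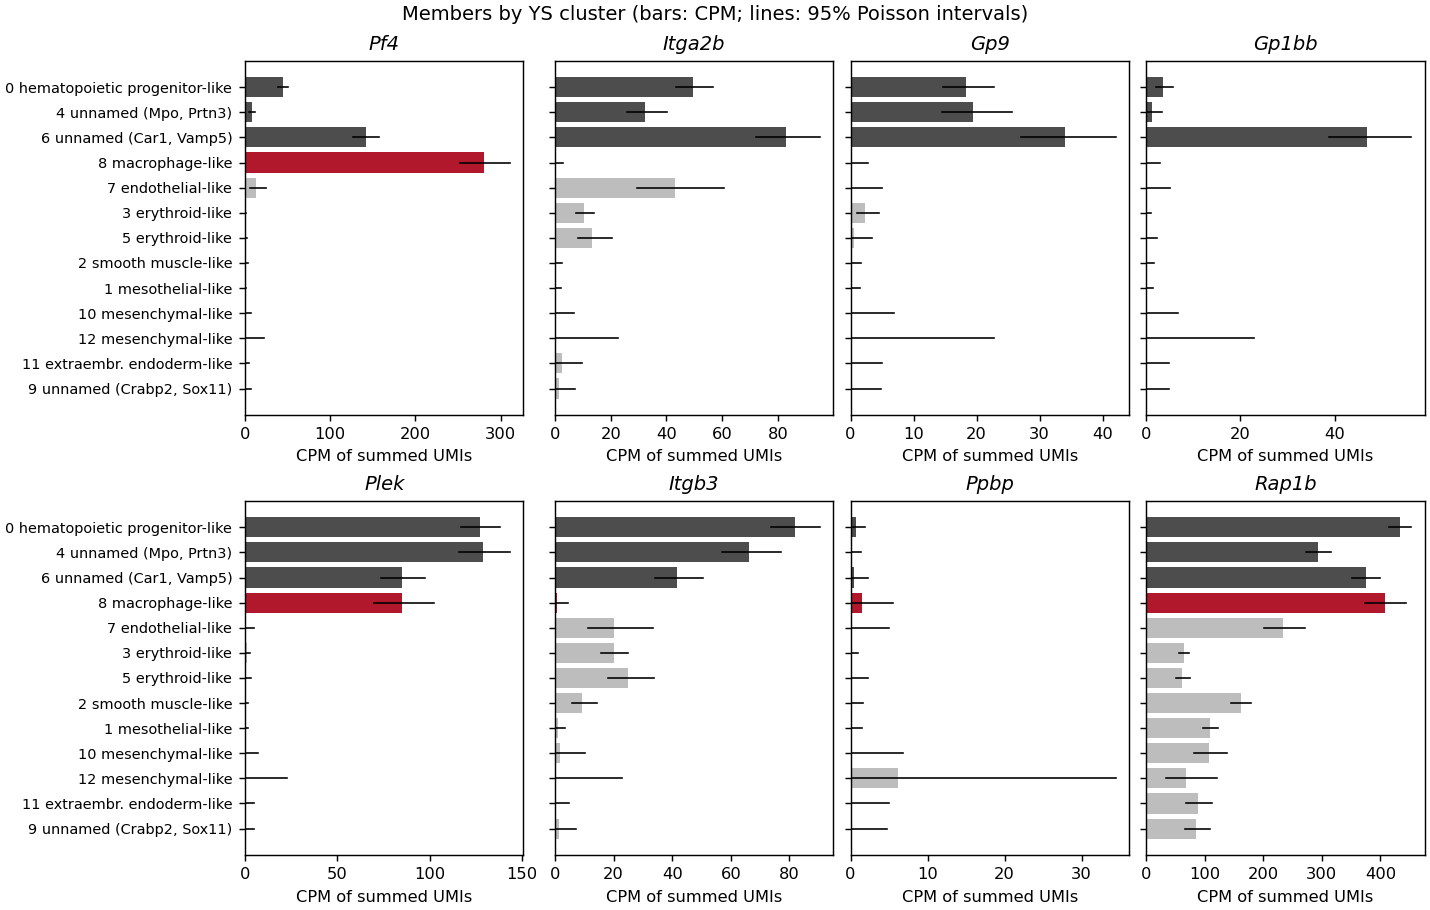
Level of each gene in the 13 YS clusters (bars, CPM of summed UMIs; lines, 95% Poisson intervals), with macrophage-like cells in red and the progenitor-like, Mpo and Car1 clusters in dark grey. Gp1bb is nearly limited to the Car1 cluster (46.9 CPM), Pf4 is highest in macrophage-like cells (281 CPM), and Plek and Rap1b are high in all 4 coloured clusters.

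To separate the Pf4 of cells with Gp9 or Itga2b from that of macrophages, YS cells were sorted into classes by UMIs. The platelet-gene class held Gp9 or Itga2b and neither Csf1r, the receptor for macrophage colony-stimulating factor, nor the complement gene C1qb (206 cells), and the macrophage-gene class the reverse (76 cells). A further 70 cells held genes of both kinds and 423 neither. Median cells of these classes had 39586, 32549, 46847 and 23033 UMIs, and a deeper cell is more likely to enter a class. The levels of Gp9, Itga2b, Csf1r and C1qb define the classes and are no results. The macrophage-gene class was mixed: 40 of its 76 cells were the macrophage-like cluster, 12 were in the Mpo cluster, 7 in the progenitor-like cluster, and the rest in clusters of other tissues. Of the 70 cells with both kinds, 37 were progenitor-like and 26 in the Mpo cluster, and 0 were macrophage-like.

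Pf4 was lower per UMI in the platelet-gene class than in the macrophage-gene class, while both held a large part of it. The platelet-gene class had 64.9 CPM (59.5 to 70.8) and the macrophage-gene class 156 CPM (141 to 173), a log2 ratio of -1.26 with a ratio of 0.416 (0.364 to 0.477). The platelet-gene class held 517 of 952 Pf4 UMIs (54.3%, 51.1 to 57.5) in 56 cells, and the macrophage-gene class 374 UMIs (39.3%, 36.2 to 42.5) in 38 cells. The cells with both kinds had 45 UMIs (14.2 CPM, 10.4 to 19.0), and those with neither 16. With C1qb required, 52 cells of the macrophage-gene class stood at 226 CPM (203 to 250). Of the 374 macrophage-gene UMIs, 364 were in the macrophage-like cluster. Of the 517 platelet-gene UMIs, 348 were in the Car1 cluster and 156 in the progenitor-like cluster.

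Both classes carried Pf4 in a few cells. Of 131 YS cells with Pf4, 64 had 1 UMI, 41 had 2 to 4 and 26 had 5 or more, and these 26 held 81.7% of its UMIs. Of the 26 cells, 15 were macrophage-like, 9 progenitor-like and 2 in the Car1 cluster. Among the 40 macrophage-like cells Pf4 ranged from 0 to 72 UMIs with a median of 2, and 4 cells held 202 of the 364 UMIs (55.5%). Unequal Pf4 was seen in macrophage-like cells as well as in the platelet-gene class.

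One cell set much of the platelet-gene value. It held 323 Pf4 UMIs of its 59103 (5465 CPM, 4885 to 6095), 33.9% of all Pf4 UMIs in YS cells, and the next cell, macrophage-like, had 72. The same cell was highest, or tied for highest, for all 8 members: 16 UMIs of Itga2b, 15 of Gp9, 28 of Gp1bb, 38 of Plek, 32 of Itgb3, 155 of Rap1b and 1 of Ppbp. It was the single cell with all 8. It also held 15 UMIs of Treml1 (16.3% of all in YS cells), 34 of Rab27b, which encodes a GTPase of platelet granule release (12.01%), 15 of the granule protein gene Thbs1 (14.6%) and 11 of F2rl2, which encodes a thrombin receptor (26.2%). It had 0 UMIs of Csf1r, C1qb and Mpo and 7 of the embryonic globin gene Hbb-y, and its total ranked 52nd among the 775 cells. It was not marked as a doublet, which says little, because marking found 2 YS cells (0.258%, with 0.62% expected). Without this top cell, Pf4 in the platelet-gene class was 24.6 CPM (21.2 to 28.3) against 156 CPM in the macrophage-gene class, a log2 ratio of -2.67. The platelet-gene class's share of Pf4 was then 30.8%.

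**Figure D3:**
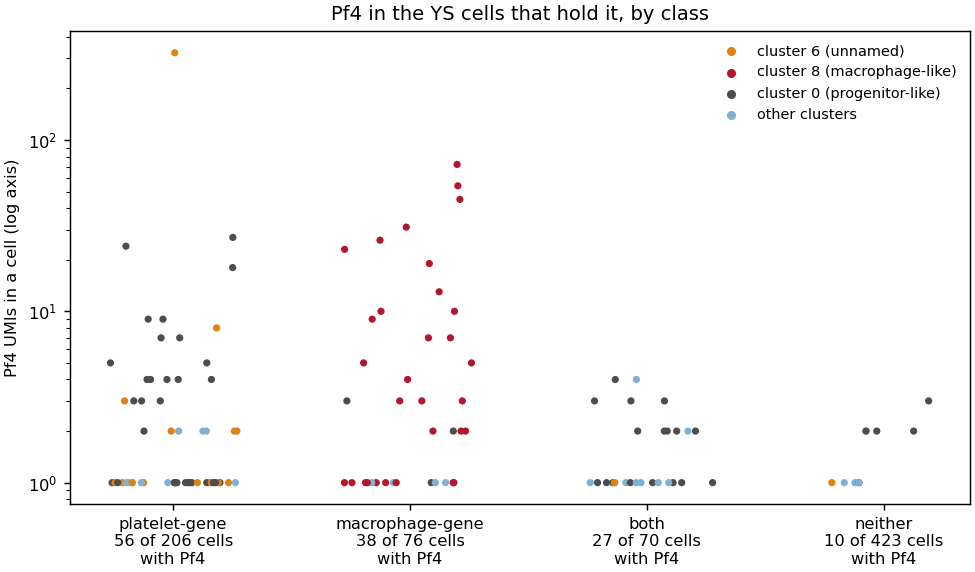
Pf4 UMIs in each of the 131 YS cells that hold it (points, log axis), by class, with the cluster of the cell in colour and sideways spread added for legibility. The top cell of the platelet-gene class has 323 UMIs, the macrophage-gene class reaches 72, and the cells with both kinds of gene reach 4.

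Of the other members, the receptor genes distinguished the classes and the signalling genes did not. Gp1bb had 122 UMIs in the platelet-gene class (15.3 CPM, 12.7 to 18.3) and 0 in the macrophage-gene class, at least 12.3-fold higher. Itgb3 had 58.3 CPM (53.1 to 63.8) in the platelet-gene class and 14.6 CPM (10.2 to 20.3) in the macrophage-gene class, a ratio of 3.99 (2.83 to 5.80). The macrophage-like cluster had 1 of the 35 Itgb3 UMIs of the macrophage-gene class, and with C1qb required that class stood at 6.70 CPM (3.34 to 11.98). These 2 of the 5 members compared were at least 2-fold higher, where 6.79% of 11631 genes were, and Pf4 was at least 2-fold lower, where 18.7% of genes were. Without the cell of most Pf4 the same 3 calls stood, against 6.8% and 18.8% of genes. Plek had 77.1 CPM (71.1 to 83.5) in the platelet-gene class and 80.9 CPM (69.9 to 93.1) in the macrophage-gene class, a ratio of 0.953 (0.810 to 1.13). Rap1b had 314 CPM (302 to 327) and 321 CPM (299 to 345) in the same order, a ratio of 0.978 (0.902 to 1.06). The Rap1b log2 ratio of -0.03 was 0.09 with globin and mitochondrial UMIs left out of the totals, and that of Plek, -0.07, was 0.20 with each cell thinned to 6000 UMIs, so no direction is given for either. Red-cell genes moved with the comparison: 8.54% of UMIs in the platelet-gene class and 0.0386% in the macrophage-gene class were globin. In the platelet-gene class 12 of 12 erythroid markers were at least 2-fold higher, as were 11 of 12 endothelial markers, with 1 lower. The part of these cell types in the ratios was not tested.

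Cells with Gp9 or Itga2b were then compared with each other whether or not they held Csf1r or C1qb, which 70 of these 276 cells did, 31 of them with Gp9. Gp9 was in 117 of them and Itga2b alone in 159, and Pf4 and Gp1bb were higher in the cells with Gp9. Pf4 had 93.7 CPM (85.5 to 103) in Gp9 cells and 13.8 CPM (10.98 to 17.1) in cells with Itga2b alone, a ratio of 6.80 (5.38 to 8.69), which was 2.24 (1.71 to 2.96) without the cell of most Pf4. Gp1bb had 19.2 CPM (15.6 to 23.4) in Gp9 cells and 5.81 CPM (4.05 to 8.08) in cells with Itga2b alone, a ratio of 3.30 (2.22 to 5.00), or 2.38 (1.57 to 3.69) without that cell. These 2 of 5 members were at least 2-fold higher, where 3.23% of 11314 genes were, and 0 were 2-fold lower, where 7.81% of genes were. Both stayed 2-fold higher without that cell, against 3.12% of genes higher and 7.86% lower. With each cell thinned to 6000 UMIs the Gp1bb log2 ratio was 0.85 (-0.81 to 2.45), under 2-fold. The remaining members differed less: Rap1b by a ratio of 1.54 (1.44 to 1.64), Plek 1.34 (1.18 to 1.52) and Itgb3 1.26 (1.07 to 1.48). Without the single cell the Itgb3 interval, 0.977 to 1.35, included equality.

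Many cells with Gp9 also held a gene of another blood lineage, Mpo. Of the 117, 82 also held Mpo, the neutrophil granule enzyme (70.1%, 60.9 to 78.2), and 51 held the erythroid and megakaryocyte factor gene Gata1 (43.6%, 34.4 to 53.1), 25 of them with both. Of the 159 cells with Itga2b alone 65 held Mpo (40.9%, 33.2 to 48.9) and 73 held Gata1 (45.9%, 38.0 to 54.0), at a median of 38052 UMIs against 45597 in Gp9 cells and without thinning. Among mesothelial-like cells 1 of 103 held Mpo (0.971%, median 23564 UMIs). Mpo stood at 154 CPM in Gp9 cells and 129 CPM in cells with Itga2b alone. Endothelial markers were at least 2-fold lower in Gp9 cells for 8 of 12 genes and erythroid markers for 9 of 12. Of the Gp9 cells 48 were progenitor-like, 32 in the Car1 cluster, 27 in the Mpo cluster and 10 erythroid-like. Mpo was common in most of these clusters, counting cells with and without Gp9. It was in 77.7% of progenitor-like, 40.7% of Car1 cluster and 89.9% of Mpo cluster cells, and in 3.26% and 0% of the erythroid-like clusters. The part of these other cell types in the ratios was not tested.

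**Figure D4:**
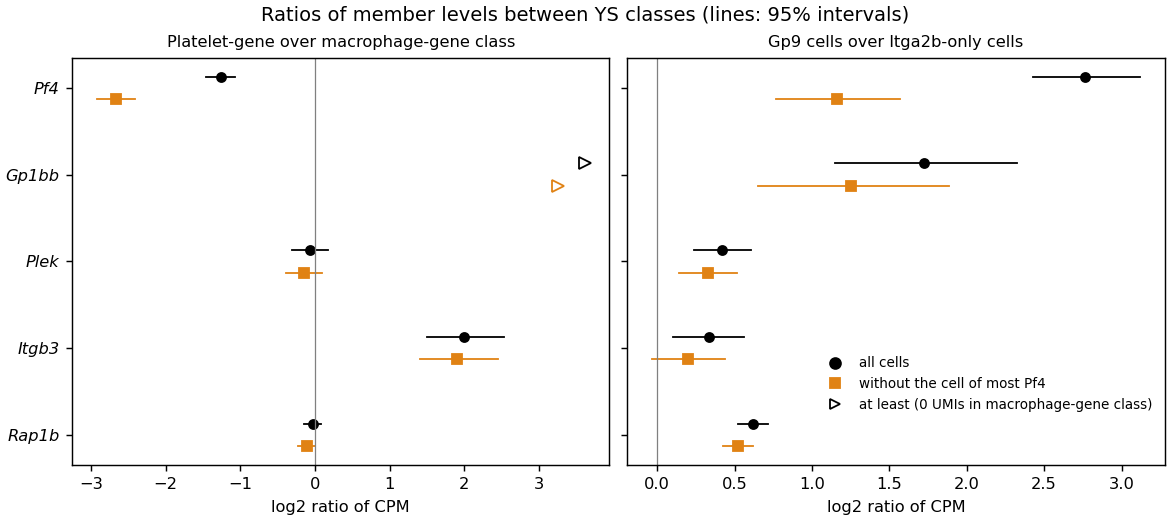
Log2 ratios of CPM for the 5 members with at least 10 UMIs that define no class, platelet-gene over macrophage-gene class on the left and Gp9 cells over cells with Itga2b alone on the right, with (black) and without (orange) the cell of most Pf4, and lines for 95% intervals. Pf4 moves most when that cell is left out, to -2.67 on the left and to 1.16 on the right, and open triangles mark lower bounds.

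Single YS cells rarely held the whole set. Of 775 cells, 52 held none of the 8 genes, 306 held 1 of them, and 48 held 6 or more. Those 48 had a median of 48404 UMIs, and 28 were progenitor-like, 15 in the Car1 cluster and 5 in the Mpo cluster. Of the 44 cells with Gp1bb, 41 held Itga2b (93.2%, 81.3 to 98.6) and 25 held Gp9 (56.8%, 41.0 to 71.7). Across the 775 cells the levels (log of counts per 10000) of Plek and Rap1b had the highest Pearson r of any pair of members, 0.61, and Plek and Itgb3 0.53. Gp9 had r = 0.44 with Itga2b and 0.19 with Pf4, and 0.42 and 0.10 without the cell of most Pf4. The cells share 1 library and differ in depth, so these values describe the library.

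The genes most like Gp9 and those most like Pf4 were different sets. Among 11648 genes with at least 30 UMIs over at least 10 of the 775 YS cells, Gp9 had the highest r with Treml1 (0.58), a receptor gene of platelet granules, and its other high values included Nrgn (0.48), Gpr56 (0.48), Fermt3 (0.47), Slc35d3 (0.45), Itga2b (0.44), Unc119, Tmem40 and Srgn (each 0.43 to 0.44). Fermt3 encodes kindlin-3, which activates platelet integrins. Pf4 had the highest r with Ms4a6b (0.59), C1qc (0.58), C1qa (0.57), Ms4a6c (0.55) and Aif1 (0.55), followed by C1qb, C3ar1, AI607873, F13a1 and Cd68. C1qa, C1qb and C1qc encode the complement protein C1q, a macrophage product, and F13a1 is also on the granule and coagulation list described below. Without the cell of most Pf4 its r with Ms4a6b was 0.63 and with C1qc 0.63.

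Genes outside the 8 were read from 6 lists of the same pathways, with members left out. Their counts for YS against EB stand beside 21.5% of all genes at least 2-fold higher in YS cells and 18.5% lower. A rise in YS was not particular to platelet lists. Higher by that much were 12 of 12 macrophage markers (median log2 ratio 7.96), 11 of 12 erythroid (12.4) and 11 of 12 endothelial markers (5.29). Of 22 platelet receptor and signalling genes, 18 passed the filter, and 14 of these were at least 2-fold higher in YS cells and 0 lower, with a median log2 ratio of 3.99 where all genes had 0.00. The highest were Fcer1g, the Fc receptor chain that signals for the collagen receptor, at 233 CPM in YS cells and 0.118 CPM in EB cells, and the ATP receptor gene P2rx1 at 17.8 and 0.0197 CPM. The lowest were Cd9 (77.1 CPM in YS cells and 67.2 in EB cells) and the thrombin receptor gene F2r (30.9 and 27.3 CPM). Of 15 megakaryocyte transcription factor genes 12 were at least 2-fold higher and 0 lower (median 2.73). Gfi1b had 28.3 CPM in YS cells and 0.138 in EB cells, and Gata1 39.8 and 0.335 CPM, while Zfpm1, near the low end of the list, had 23.1 and 14.4 CPM.

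Granule and coagulation genes were mixed, with 13 of 21 at least 2-fold higher in YS cells and 1 lower (median 1.77). The counts here also stand beside 21.5% of all genes higher and 18.5% lower. Srgn, the granule proteoglycan gene, had 54.8 CPM in YS cells and 0.158 in EB cells, and F13a1, the clot-stabilising factor XIII gene, had 293 UMIs and 0. The lowest were Pdgfa (9.51 CPM in YS cells and 43.2 in EB cells) and Serpine2 (16.04 and 24.5 CPM). Of 14 integrin activation genes 7 were higher and 0 lower (median 1.26), with Fermt3 at 59.8 CPM in YS cells and 0.809 in EB cells and Apbb1ip, the gene of the RAP1 effector RIAM, at 29.7 and 0.493 CPM. Rap1gap (0.786 and 1.07 CPM) and Rapgef2 (3.76 and 4.60 CPM) were lowest in that list. Of 13 platelet cytoskeleton genes that passed, 5 were higher and 1, Wasf1, lower (median 0.98), with Bin2 (51.5 CPM in YS cells and 0.355 in EB cells) and Was (27.95 and 0.256 CPM) at the top and Flna (51.6 and 101 CPM) next to Wasf1 (7.98 and 33.9 CPM) at the bottom. Of the other chemokine genes in the cluster on chromosome 5, 8 of 9 were listed, and the 5 that passed were higher in YS cells, from Cxcl2 (215 UMIs and 1) and Cxcl3 (21 UMIs and 1) to Cxcl10 (9.97 and 0.710 CPM) and Cxcl1 (0.951 and 0.158 CPM).

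Between the YS classes the lists went different ways, and their counts stand beside 6.79% of all genes at least 2-fold higher in the platelet-gene class and 18.7% lower. Transcription factor genes were higher in the platelet-gene class for 9 of 15 and lower for 1 (median 1.23, against -0.17 for all genes). Gata1 had 539 UMIs in the platelet-gene class and 0 in the macrophage-gene class, and Zfpm1, the gene of its partner FOG1, 38.9 and 2.50 CPM. Mef2c (82.7 CPM in the platelet-gene class and 182 in the macrophage-gene class) and Runx1 (61.1 and 80.1 CPM) were lowest. Receptor genes were higher for 8 of 18 and lower for 2, with F2rl3 (8.54 and 0.417 CPM) and Lat (16.7 and 1.67 CPM) at the top and Fcer1g (231 and 857 CPM) and P2ry12 (0 UMIs and 37) at the bottom. Granule genes were higher for 5 of 21 and lower for 6, with Rab27b at 26.4 CPM in the platelet-gene class and 0.834 in the macrophage-gene class and F13a1 at 4.52 and 98.0 CPM. Cytoskeleton genes were higher for 0 of 13 and lower for 7 (median -1.25), with Tmsb4x at 2973 CPM in the platelet-gene class and 14946 in the macrophage-gene class, and integrin activation genes higher for 0 of 13 and lower for 4 (median -0.39). Fermt3 had 112 CPM in the platelet-gene class and 98.8 in the macrophage-gene class.

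Between Gp9 cells and cells with Itga2b alone, most receptor genes of the list differed by less than 2-fold. The list counts stand beside 3.23% of all genes at least 2-fold higher in Gp9 cells and 7.81% lower. Of 17 that passed, 5 were at least 2-fold higher in Gp9 cells than in cells with Itga2b alone and 0 lower, with a median log2 ratio of 0.56 where all genes had 0.07. F2rl2 had 6.65 CPM in Gp9 cells and 0.830 in cells with Itga2b alone, a ratio of 8.01 (3.12 to 26.2), and Treml1 14.9 and 2.16 CPM, a ratio of 6.89 (3.80 to 13.5). Without the cell of most Pf4 these ratios were 5.48 and 5.59. Granule genes were higher for 3 of 21 and lower for 3, among them Thbs1 (22 UMIs in Gp9 cells and 2 in cells with Itga2b alone, or 7 and 2 without that cell) and Sparc, a matrix gene (36.6 and 185 CPM). Of 15 transcription factor genes 0 differed by 2-fold.

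Among genes of at least 100 CPM in the class where they were higher, those furthest towards the platelet-gene class were red-cell genes, among them Hbb-bs, Alas2, Hba-a1, Hba-a2, Hemgn, Klf1, Hba-x, Hbb-y and Hbb-bh1. Hbb-bs had 309 CPM in the platelet-gene class and 0.417 in the macrophage-gene class. The 10 furthest the other way began with macrophage genes, C1qc (0.754 CPM in the platelet-gene class and 563 in the macrophage-gene class), C1qa (0.377 and 241), Ms4a6c, Aif1, Cx3cr1 and Ms4a6b, followed by Lum, Lpl, Cd68 and Amn. The 2 erythroid-like clusters gave 33 and 20 of the 206 cells of the platelet-gene class.

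Pf4 was also found in YS barcodes too small to count as cells. Over barcodes of 300 to 999, 1000 to 2999 and 3000 to 6536 UMIs it had 340 (263 to 431), 133 (96.2 to 180) and 268 CPM (223 to 320) of non-mitochondrial UMIs, against 40.2 CPM (37.7 to 42.8) in cells on that scale. Of all UMIs in these bins 48.9%, 51.9% and 14.8% were mitochondrial, against 2.00% in cells. Barcodes of 10 to 99 UMIs had 120 CPM (109 to 132), from 400 Pf4 UMIs with at most 6 in any barcode. Among barcodes of 300 UMIs up to the minimum, a few carried most of it. A barcode of 4812 UMIs had 112 of Pf4, 18 of Itga2b, 16 of Itgb3, 8 of Gp1bb, 4 each of Gp5 and Treml1, 0 of Gp9 and 0 of C1qb, and another of 526 UMIs had 55 of Pf4 (10.46%, 7.97 to 13.4). These 2 held 72.0% of the Pf4 UMIs in barcodes of 300 UMIs up to the minimum. Droplets ranked below the 10000 largest and down to rank 50000 were taken as empty. Pf4 had 105 CPM there (228 UMIs), against 39.4 CPM in YS cells. Gp9 (19.4 against 9.47 CPM), Gp1bb (18.9 against 5.58), Plek (77.4 against 51.5), Rap1b (324 against 230) and Ppbp were also higher there, and Itga2b and Itgb3 lower. A mean empty droplet of 54.2 UMIs would put a Pf4 UMI in 0.568% of cells, against 16.9% observed. That figure allows each cell the free RNA of 1 empty droplet only. The part of free RNA in the cells with 1 Pf4 UMI, 64 of 131, was not tested. Just inside the limits, the 10 cells of fewest UMIs held 0 Pf4, 3 Itga2b, 2 Plek, 1 Itgb3 and 13 Rap1b UMIs, and just outside, the 10 largest barcodes under the minimum held 1, 1, 4, 6 and 26. The 26 barcodes left out for mitochondrial RNA held 5 Pf4, 24 Itga2b, 7 Gp9 and 3 Gp1bb UMIs.

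**Figure D5:**
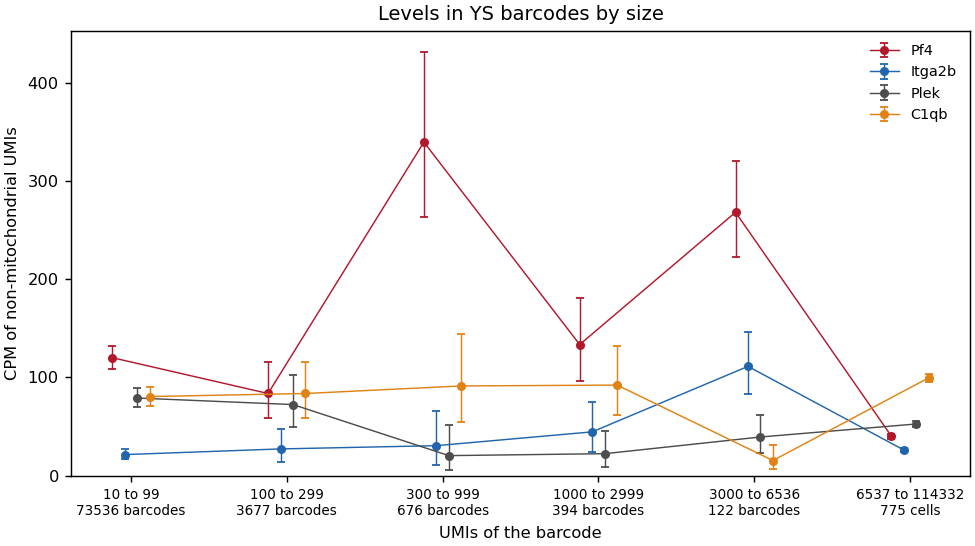
Level of Pf4, Itga2b, Plek and the macrophage gene C1qb in YS barcodes grouped by their number of UMIs (points, CPM of non-mitochondrial UMIs, with 95% Poisson intervals; lines join the bins). Pf4 is at 340 and 268 CPM in the 300 to 999 and 3000 to 6536 bins and at 40.2 CPM in cells, and the 3000 to 6536 bin also has the highest Itga2b, 111 CPM.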

How the data were processed

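The authors' deposited tables hold raw UMI counts per gene and barcode, made against mm10 per the submitters' processing notes; neither aligner nor counting program nor annotation version is given in the sources used here. The members and lists were chosen with earlier results of these data known. The UMI minimum was 10% of the 99th percentile over the 3000 barcodes of most UMIs. Genes with at least 10 UMIs over both groups were compared, and a gene was called at 2-fold. Intervals are exact Poisson (levels), Clopper-Pearson (shares) and conditional binomial (ratios). Only the ratio intervals were checked, on simulated Poisson counts, which lack the spread between cells seen here. A count of 0 was set against 3 counts per group. PCR and capture errors are not in the intervals.

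Clusters came from scanpy 1.11.5 (log counts per 10000, 2000 variable genes, 30 components, 15 neighbours, Leiden resolution 1, leidenalg 0.10.2, Python 3.11.15). A name needed 3 enriched markers, a mean log2 difference of 0.5 and markers among the top 10 genes, by a rule written after the clusters were seen. Scrublet marked 2 YS cells (0.258%, with 0.62% expected) and 3 EB cells (0.16%, with 1.50% expected), so doublets were kept and most may be unmarked. Coordinates are from GENCODE M21 (GRCm38), which held 32655 of the 33456 gene IDs, and 4 list genes were matched under older symbols. Named genes were the members, the 2 highest and 2 lowest of each list, the 10 most like Gp9 and Pf4 and the 10 of largest class ratio each way that reached 100 CPM with 30 UMIs in the class where they were higher; others were chosen after their values were seen. A few genes that these rules name are not reported here.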

Additional observations from a re-analysis of the deposited data

Results flagged for a closer look

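Pf4 appeared in YS barcodes that the cell definition leaves out, at 340 CPM of non-mitochondrial UMIs in barcodes of 300 to 999 UMIs, 133 CPM in those of 1000 to 2999 and 268 CPM in those of 3000 to 6536, while EB barcodes of 300 UMIs up to the EB minimum held 0 Pf4 UMIs. Each value lies above the 40.2 CPM of YS cells, but 2 of them rest largely on 1 barcode each. One barcode held 112 of the 123 Pf4 UMIs at 3000 to 6536 UMIs, and another 55 of the 67 at 300 to 999. Of the 232 Pf4 UMIs in these YS barcodes, 1 barcode held 48.3% and 2 held 72.0%.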

How the results depend on the processing

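Of 17 alternatives, 16 were planned and 1, leaving out the YS cell of most Pf4, was chosen after seeing the data. Under each of them that applies Pf4 was lower in the platelet-gene class than in the macrophage-gene class, and no member that was 2-fold higher in YS cells lost that. The log2 ratio of Pf4 between these classes, -1.26, was -0.99 with a minimum of 1000 UMIs, -1.88 as the mean of each cell's CPM, -1.01 with class genes at 2 UMIs or more, -2.07 with C1qb as the single macrophage gene and -2.67 without the cell of most Pf4. The platelet-gene share of Pf4, 54.3%, was 58.8% with a minimum of 1000 UMIs, 39.7% from each cell's CPM, 62.1% with free RNA subtracted, 35.0% with cells thinned to 6000 UMIs and 30.8% without that cell. Pf4 in the macrophage-like cluster, 281 CPM, was 239 with the UMI minimum at 20% of the 99th percentile and 352 as a mean over cells. In the cluster of most Gp1bb, 142 CPM, it was 173 with a minimum of 1000 UMIs, 7.27 with a mitochondrial limit of 5%, 104 as a mean over cells and 11.2 without that cell. The number of members 2-fold higher in Gp9 cells, 2, was 1 after thinning. Causes were not tested beyond what leaving out the cell shows. No paired analysis was possible because each group is 1 library. Counting error limits Ppbp (7 UMIs) and the EB values of Pf4, Gp1bb and Plek (1 to 3 UMIs), and the spread between cultures or litters is unknown.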

Other observations

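The endothelial-like YS cells combined Itga2b (43.1 CPM, 29.5 to 60.8) with Clec1b at 170 CPM (141 to 202) and Fli1 at 117 CPM (93.8 to 144), and had 0 UMIs of Gata1, Nfe2, Treml1 and Gp5 in 48 cells. Other megakaryocyte markers were present there, with 15 UMIs of Mmrn1 (20.2 CPM), 14 of Vwf (18.8 CPM, of 22 in all YS cells), 7 of Rab27b and 3 of P2rx1, and Mmrn1 and Vwf are also known in endothelium. Clec1b, a platelet receptor gene also known in endothelium, was thus highest in cells without Gp9, against 49.4 CPM (43.2 to 56.3) in progenitor-like cells, 46.2 CPM (38.3 to 55.2) in the Mpo cluster and 15.0 CPM (10.54 to 20.6) in the Car1 cluster. The mannose receptor gene Mrc1 had 226 CPM (193 to 263) in endothelial-like cells and 233 CPM (207 to 261) in macrophage-like cells. These genes were chosen after their values were seen.

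Gp5 and Treml1, platelet receptor genes outside the 8 members, followed Gp1bb closely. Gp5 had 66 of its 84 YS UMIs and Treml1 73 of 92 in the Car1 cluster, where Gata1 stood at 118 CPM (105 to 132), Nfe2 at 67.6 CPM (57.7 to 78.6) and Mpo at 119 CPM (105 to 133). In the Mpo cluster, where Gp9 was at 19.5 CPM, Treml1 had 0 UMIs and Gp5 1. The cell of most Pf4 held 15 of the 73 Treml1 UMIs and 3 of the 66 Gp5 UMIs.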
